A study of Homo sapiens with 36 samples.

Results

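The AP-1 transcription factors were followed in THP-1 cells, an established human monocytic leukaemia line. The 10 genes were chosen by symbol, and each was matched to 1 of the 57500 gene rows of the count files by its Ensembl identifier. They were the Fos genes FOS, FOSB, FOSL1 and FOSL2, the Jun genes JUN, JUNB and JUND, the activating factor ATF3, and the lymphoid and myeloid members BATF and BATF3. All 10 members passed the filter on low counts, which left 17720 genes for testing. The rule itself uses no measured value, but the members were chosen with earlier results of these data known. Counts of members called, beside the shares of all genes, are therefore a description.

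AP-1 is a dimer of basic leucine zipper proteins. Jun proteins pair with each other or with a Fos, ATF or BATF partner, whereas Fos and BATF proteins need a partner to bind DNA. The dimers bind the TPA response element or the related cAMP response element, and the genes of several members are themselves induced within minutes of a stimulus as immediate early genes. In monocytes, lipopolysaccharide (LPS) from Gram-negative bacteria acts through Toll-like receptor 4 and the MAP kinases that raise and phosphorylate AP-1 proteins, which then act with NF-kB at cytokine genes.

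RNA was measured in 36 libraries, 3 for each of 12 conditions. All cells had been transduced with lentiviral particles carrying a non-target shRNA (shNT), an shRNA against NR4A2 (shNR4A2) or an shRNA against NR4A3 (shNR4A3), so that the control cells carry an shRNA too, and the labels name 1 transduced population for each shRNA. Cells were kept for 4 h in buffered medium at 5% CO2 (normocapnia) or 10% CO2 (buffered hypercapnia), either in the basal state or with LPS at 2.5 µg/ml for the final 2 h. Replicate numbers stand in the labels, which do not say whether the libraries of a condition came from separate cultures. The legends of the study describe its sequencing data as coming from 3 experiments, and p-values measure the spread between these libraries. With 3 libraries against 3, an exact permutation test cannot go below p = 0.1, and the tests given are those of edgeR across all genes.

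Libraries held 16171161 to 23929138 counts (median 19639071), and chi-square values between libraries of a condition were 6.28 to 27.4 per degree of freedom, so no library was a second copy of another within a condition. The monocyte genes SPI1 (467 to 1132 TPM, transcript abundance per unit of length), LYZ (131 to 1058 TPM) and FCGR1A (81.3 to 129 TPM) were present in every library, CD14 ranged from 7.47 to 66.7 TPM, and FCN1 was at 0 to 0.402 TPM. T cell, erythroid, epithelial and fibroblast markers did not exceed 1.59 TPM, and the B cell gene CD79A was at 0.482 to 3.48 TPM. NR4A2 was lower in shNR4A2 than in shNT cells in all 4 conditions (log2 fold change -0.91 to -1.67, adjusted p 0.0337 to 3.28e-07). NR4A3 was lower in shNR4A3 cells in 3 of 4 conditions (-2.47, -0.82 and -1.11), and at 10% CO2 in the basal state, where shNT and shNR4A3 libraries held 6 to 14 counts, its change was -0.39 (adjusted p = 0.735). NR4A3 was also higher in shNR4A2 cells at 10% CO2 with LPS (0.57, adjusted p = 0.00295), and NR4A2 lower in shNR4A3 cells in that condition (-0.32, adjusted p = 0.0166).

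The genes are compact and lie on 5 chromosomes of GRCh38. FOS (ENSG00000170345) is at chr14:75278774-75282230 on the plus strand and BATF (ENSG00000156127) at chr14:75522425-75547015 on the same strand, so both share a chromosome arm. JUN (ENSG00000177606) is at chr1:58780788-58784327 on the minus strand, while ATF3 (ENSG00000162772, chr1:212565334-212620777, plus) and BATF3 (ENSG00000123685, chr1:212686418-212699985, minus) lie close together on the other arm. Chromosome 19 carries JUNB (ENSG00000171223, chr19:12791496-12793315, plus), JUND (ENSG00000130522, chr19:18279760-18281622, minus) and FOSB (ENSG00000125740, chr19:45467995-45475179, plus). FOSL1 (ENSG00000175592) is at chr11:65892049-65900573 on the minus strand, and FOSL2 (ENSG00000075426) at chr2:28392448-28417312 on the plus strand. The canonical transcripts of the 3 Jun genes have 1 exon, those of the Fos genes and ATF3 have 4, and those of BATF and BATF3 have 3. Of the exon bases of JUNB, 14.2% are shared with HOOK2 on the opposite strand, so reads of the 2 genes cannot be told apart there without a strand setting, which is not given in the sources used here. The GC content of the longest annotated transcript of each gene ran from 45.6% in BATF3 and 46.7% in ATF3 to 64.9% in JUNB and 69.9% in JUND.

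The 250 bases before the start of transcription are shown for the members on which the results turn. FOSB and JUND were higher with LPS and lower at 10% CO2, JUN and ATF3 were among the 3 members with the largest rises with LPS, and BATF fell with LPS. Sequences are from RefSeq (GRCh38.p14), 5′ to 3′ on the strand of the gene, and capitals mark the letters TGACGTCA (the cAMP response element), TGACATCA (a variant of it), TGACG (its first letters, also read on the other strand as CGTCA) and TATAAA (the letters of a TATA box). FOSB lies at chr19:45467746-45467995 on the plus strand, JUND at chr19:18281623-18281872 on the minus strand, JUN at chr1:58784048-58784297 on the minus strand, ATF3 (the upstream one of 2 listed starts) at chr1:212565157-212565406 on the plus strand, and BATF at chr14:75522219-75522468 on the plus strand.
FOSB: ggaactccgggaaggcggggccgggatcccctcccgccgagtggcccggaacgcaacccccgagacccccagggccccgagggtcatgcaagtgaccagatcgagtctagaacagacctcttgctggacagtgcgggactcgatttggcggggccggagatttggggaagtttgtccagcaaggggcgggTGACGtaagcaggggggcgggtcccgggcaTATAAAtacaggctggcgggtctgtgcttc
JUND: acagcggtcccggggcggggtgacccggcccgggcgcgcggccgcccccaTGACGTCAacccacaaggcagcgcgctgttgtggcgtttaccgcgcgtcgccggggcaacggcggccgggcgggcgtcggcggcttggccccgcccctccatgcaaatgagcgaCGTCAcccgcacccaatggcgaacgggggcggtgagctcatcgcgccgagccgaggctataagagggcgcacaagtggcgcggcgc
JUN: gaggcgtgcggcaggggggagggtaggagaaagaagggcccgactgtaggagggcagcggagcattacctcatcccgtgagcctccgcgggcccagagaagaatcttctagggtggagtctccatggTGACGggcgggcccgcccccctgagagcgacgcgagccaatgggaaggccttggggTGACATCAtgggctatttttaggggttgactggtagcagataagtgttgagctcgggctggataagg
ATF3: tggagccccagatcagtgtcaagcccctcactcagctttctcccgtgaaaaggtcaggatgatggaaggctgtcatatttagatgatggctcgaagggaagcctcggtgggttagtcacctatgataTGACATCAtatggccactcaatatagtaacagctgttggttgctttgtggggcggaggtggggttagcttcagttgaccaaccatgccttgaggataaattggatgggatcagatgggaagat
BATF: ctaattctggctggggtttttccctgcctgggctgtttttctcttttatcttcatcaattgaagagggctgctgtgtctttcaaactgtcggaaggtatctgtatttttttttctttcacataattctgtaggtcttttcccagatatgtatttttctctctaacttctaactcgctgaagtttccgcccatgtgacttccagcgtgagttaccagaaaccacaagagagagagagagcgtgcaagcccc

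RefSeq windows of 300 bases, reaching 50 bases past the start, were found for 8 of the 10 members; FOSL1 and BATF3 had no entry. TGACG, read on either strand, was in 6 of the 8 members and in 24.6% of all 35116 windows of that length. In FOS and FOSB it began at -64 and -60, followed by TATAAA at -33 and -30, and in JUNB at -137 with TATAAA at -31. TATAAA was in 11.5% of all windows. JUND held TGACGTCA at -200, found in 1.85% of windows, within which TGACG is counted again, and a further CGTCA at -86. JUN at -67 and ATF3 at -123 held TGACATCA (2.61% of windows). FOSL2 was the member with TGACTCA, the letters of the TPA response element (4.95% of windows), at position 5 after the start. TGACGCAA (0.513%), the CArG box (1.29%) and the NF-kB motif (5.91%) were in none of the 8 within these windows, and BATF held none of the motifs searched. Bases outside the windows were not searched, so a motif further out would be missed. These are matches of letters on both strands and were not tested as binding sites. TGACG, TGACATCA and TATAAA were added after these sequences were seen, so their counts beside the shares of all windows are a description.

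In the basal state JUND, a Jun protein that most cells make without a stimulus, was the most abundant member per unit of length. In shNT cells at 5% CO2 it was at 278, 274 and 196 TPM in the 3 libraries. JUN followed at 132, 88.4 and 88.9 TPM, JUNB at 74.6, 86.1 and 76.4 TPM and FOSL2 at 80.5, 69.6 and 63.8 TPM. The libraries of JUND and JUN did not overlap, whereas those of JUNB and FOSL2 did. Below them came BATF (61.3, 49.9 and 54 TPM), FOSL1 (38.9, 38.4 and 35.8 TPM) and FOS (30.9, 29.8 and 25.6 TPM), each without overlap with the next. ATF3 (9.65, 10.7 and 7.96 TPM) and BATF3 (7.51, 9.52 and 9.18 TPM) overlapped, and FOSB was the scarcest at 2.59, 1.99 and 1.54 TPM. FOSB rested on 16 to 270 counts per library over the whole series, so counting error is largest for it.

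**Figure D1:**
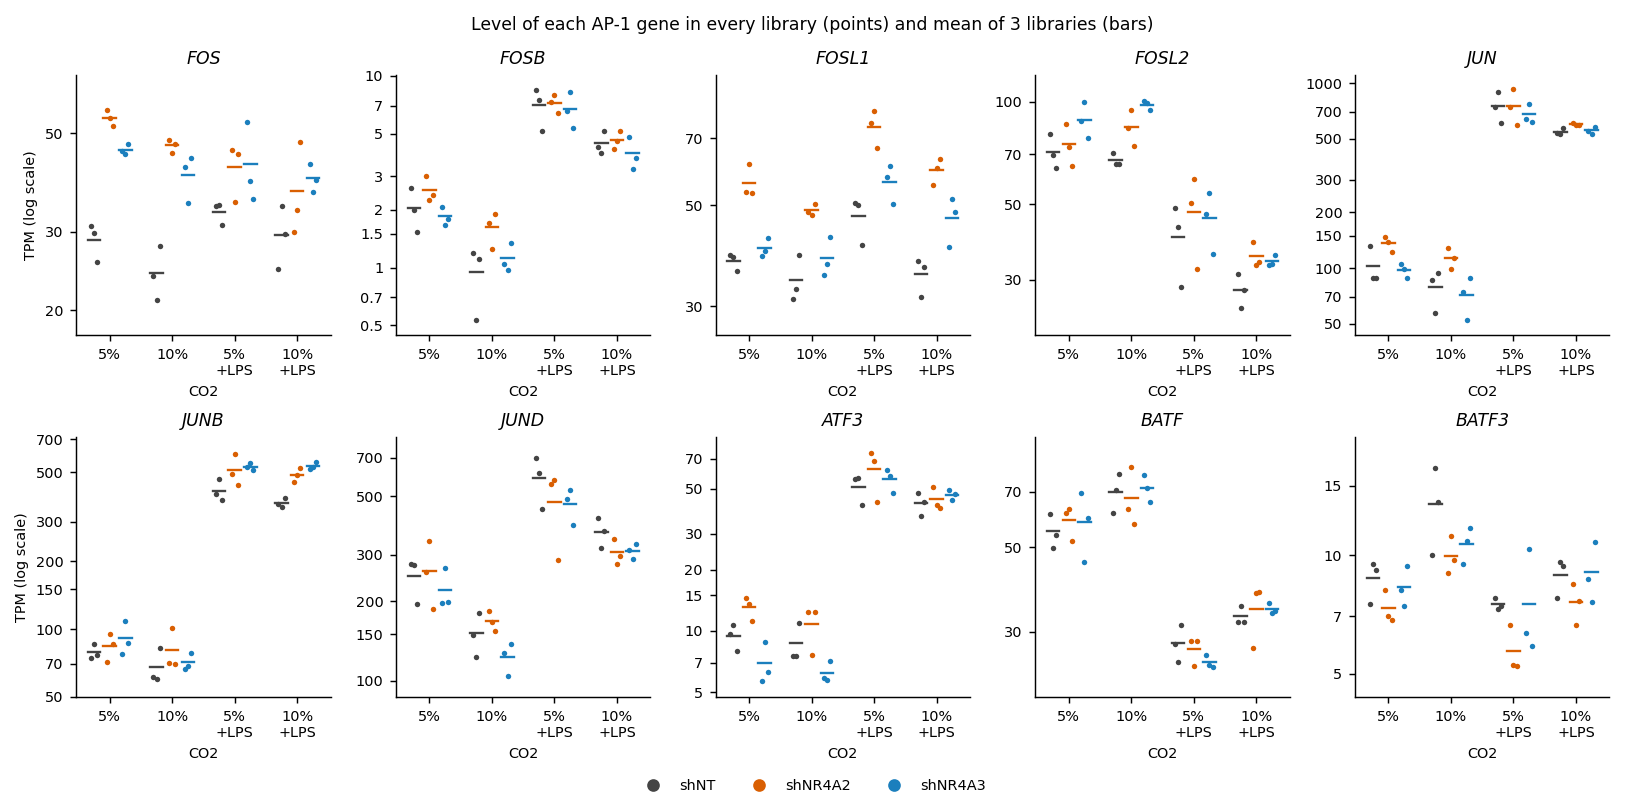
Level of each AP-1 gene in TPM (log axis) in every library (points) with the mean of 3 libraries (bars), by CO2, LPS and cell line. JUN, JUNB and ATF3 rise with LPS in every line without overlap (JUN 52.2 to 148 TPM basal, 528 to 926 TPM with LPS), BATF falls, and FOS is lowest in shNT cells in the basal state.

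LPS for 2 h changed most of the AP-1 genes, in both directions and in all 3 lines. Of 60 tests (10 members in 6 comparisons), 48 passed an adjusted p of 0.05, 37 of them higher and 11 lower. By comparison, 9 members were called in shNT cells at 5% CO2 against 22.9% of all genes tested, and 8 in shNT cells at 10% CO2 against 31.2%. In shNR4A2 cells 7 were called at 5% CO2 (18.2% of all genes) and 8 at 10% CO2 (35%), and in shNR4A3 cells 8 at each CO2 level (25.3% and 42.1%). The median log2 fold change of the members was 0.86 to 1.09, beside medians of all genes between -0.01 and 0.00. Fold changes here and below are on a log2 scale of CPM scaled by TMM, a scaling that sets most genes to no change. With scaling by library size alone the median of all genes moved to between -0.25 and -0.18 in the LPS comparisons, so the changes are relative to the bulk of the genes. As in any bulk sample, fewer cells expressing a gene and less RNA per cell cannot be told apart.

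JUN, JUNB and ATF3 had the largest rises. JUN, the founding Jun protein and the usual partner of FOS, went from 132, 88.4 and 88.9 TPM in basal shNT cells at 5% CO2 to 743, 898 and 609 TPM with LPS. Every stimulated library was several times above every basal one. The log2 fold change was 3.08 ± 0.20 (SE, adjusted p = 3.12e-05), and over the 6 comparisons 2.67 to 3.23. JUNB, a Jun protein with weaker transactivation that can oppose JUN, went from 74.6, 86.1 and 76.4 TPM to 399, 466 and 376 TPM (2.61 ± 0.10, adjusted p = 5.06e-12), with 2.61 to 3.18 over the comparisons. ATF3, a stress-induced factor known to restrain cytokine genes downstream of Toll-like receptors, went from 9.65, 10.7 and 7.96 TPM to 55.7, 56.3 and 41.5 TPM (2.65 ± 0.14, adjusted p = 1.8e-09). Its change was 2.30 to 3.23 over the comparisons, the 2 highest values being those of shNR4A3 cells. All 3 genes were called in all 6 comparisons, with no overlap between basal and stimulated libraries.

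JUND and FOSB rose less, also in all 6 comparisons and without overlap. JUND went from 278, 274 and 196 TPM to 701, 611 and 449 TPM in shNT cells at 5% CO2 (1.45 ± 0.21, adjusted p = 0.00295), with 1.11 to 1.61 over the comparisons. In shNR4A2 cells at 5% CO2 its libraries were at 259, 338 and 187 TPM in the basal state and 559, 577 and 286 TPM with LPS. Stimulated replicate 3 lay below basal replicate 2 in TPM, although not on the TMM scale. There the change was 1.11 ± 0.29 (adjusted p = 0.0316), and the call was lost without basal replicate 1 or 3 or stimulated replicate 1 (adjusted p up to 0.184). FOSB, an immediate early partner of Jun proteins, went from 2.59, 1.99 and 1.54 TPM to 8.47, 7.5 and 5.16 TPM (2.00 ± 0.22, adjusted p = 6.45e-06), with 1.76 to 2.50 over the comparisons.

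FOS and FOSL1 changed by smaller amounts. FOS, the classic immediate early gene, was at 34.3, 34.4 and 31.1 TPM after 2 h of LPS in shNT cells at 5% CO2, against 30.9, 29.8 and 25.6 TPM in the basal state. The stimulated libraries were just above the basal ones. The change was 0.43 ± 0.11 (adjusted p = 0.0102) there and 0.56 ± 0.14 (adjusted p = 0.00563) at 10% CO2. It was -0.09 and -0.06 in shNR4A2 cells and 0.12 and 0.26 in shNR4A3 cells, none of them called (adjusted p 0.0592 to 0.778). The value in shNR4A3 cells at 10% CO2 passed with RLE size factors (0.27, adjusted p = 0.0491) and with GC as an offset (0.33, adjusted p = 0.0418). With scaling by library size alone FOS was not called in shNT cells either (0.25 and 0.34, adjusted p 0.098 and 0.067), its value in shNR4A3 cells at 5% CO2 turned to -0.08, and the call at 5% CO2 was also lost without basal replicate 3 (0.31, adjusted p = 0.061). FOSL1, a Fos protein without a transactivation domain, went from 38.9, 38.4 and 35.8 TPM to 50.6, 50 and 40.9 TPM (0.54 ± 0.11, adjusted p = 0.00224). It was called in 5 of 6 comparisons with changes of 0.31 to 0.70, the exception being shNT cells at 10% CO2 (0.31, adjusted p = 0.0611). There it was 0.51 with GC as an offset (adjusted p = 0.000694), 0.30 in 1 fit to all 36 libraries (adjusted p = 0.0228), and 0.09 with library size alone (adjusted p = 0.605).

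FOSL2 and BATF fell. FOSL2, a Fos protein that like FOSL1 lacks a strong transactivation domain, went from 80.5, 69.6 and 63.8 TPM to 48.7, 42.8 and 28.5 TPM in shNT cells at 5% CO2. All stimulated libraries were below all basal ones, but the stimulated ones were widely spread. The change was -0.62 ± 0.18 (adjusted p = 0.0399), and the call was lost without any of the 3 basal libraries or stimulated replicate 2 (adjusted p up to 0.133), and with GC as an offset (-0.54, adjusted p = 0.091). FOSL2 was called lower in 5 of 6 comparisons (-0.62 to -1.26) and not in shNR4A2 cells at 5% CO2 (-0.41, adjusted p = 0.151). BATF, a small partner of JUNB known for its work with IRF factors in lymphocytes and dendritic cells, went from 61.3, 49.9 and 54 TPM to 27.9, 25 and 31.2 TPM (-0.74 ± 0.15, adjusted p = 0.00126). It was called lower in 6 of 6 comparisons without overlap (-0.69 to -1.01). BATF3, its relative needed by cross-presenting dendritic cells, was at 7.51, 9.52 and 9.18 TPM in the basal state and 7.77, 7.31 and 7.41 TPM with LPS. It was not called in any comparison (-0.32 to 0.05, adjusted p 0.21 to 0.984).

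In 5 of the 6 LPS comparisons, all but shNT cells at 5% CO2, libraries of the same replicate number deviated together. With the replicate number as a block, calls in these 5 went from 39 to 42. The share of all genes called also rose, from between 18.2 and 42.1% to between 27.7 and 52.2%. The added ones were FOSL1 in shNT cells at 10% CO2 (0.31, adjusted p = 0.0194), FOSL2 in shNR4A2 cells at 5% CO2 (-0.43, adjusted p = 0.00978) and FOS in shNR4A3 cells at 10% CO2 (0.25, adjusted p = 0.00182).

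**Figure D2:**
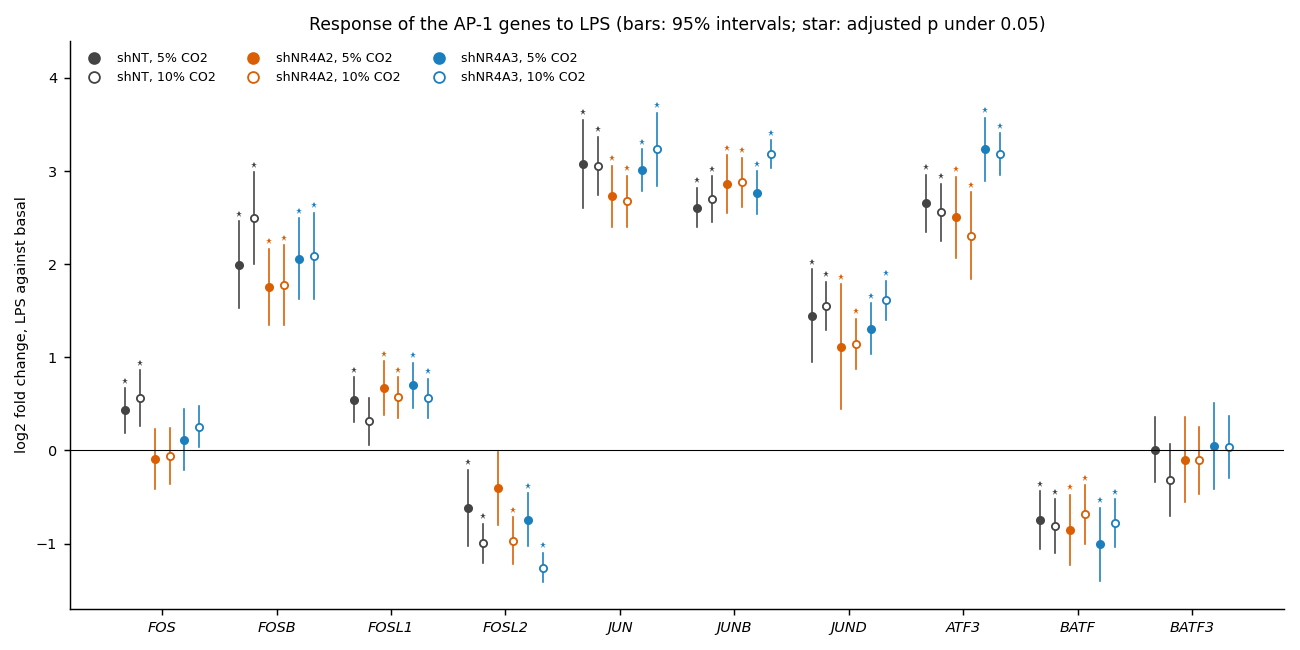
Log2 fold change of each AP-1 gene with LPS against the basal state, in 3 lines at 5% CO2 (filled) and 10% CO2 (open). Bars are 95% intervals and a star marks an adjusted p under 0.05. JUN, JUNB, ATF3, FOSB and JUND are above 1 in all 6 comparisons, and BATF is below 0 in all 6.

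These changes altered the make-up of AP-1 mRNA. The summed level of the 10 genes was 455 to 848 TPM (median 628) in the 18 basal libraries and rose above every one of these in the 18 stimulated libraries, from 1374 TPM upwards. The Jun genes made up 46.3 to 68.1% of the sum in the basal state (median 59.9%) and 85.3 to 89.8% with LPS (median 87.1%). The Fos genes went from 21.2 to 35.5% down to 6.13 to 9.71%, and BATF with BATF3 from 7.35 to 19.1% down to 1.24 to 3.26%. The ratio of summed Jun to summed Fos TPM was 1.3 to 3.21 (median 2.25) in basal and 8.79 to 14.7 (median 11.5) in stimulated libraries. No basal library overlapped a stimulated one in any of these measures. Within the Jun genes JUND was 47.4 to 61.1% of the sum in basal cells at 5% CO2 and 45.5 to 51.3% at 10% CO2, and with LPS 21.7 to 38% and 20.5 to 31.6%.

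The order of the members changed with it. In LPS-stimulated shNT cells at 5% CO2 the 3 Jun genes led with means of 750.1 TPM (JUN), 586.8 TPM (JUND) and 413.8 TPM (JUNB), each overlapping the next. ATF3 came next at 51.1 ± 8.4 TPM (SD, n = 3), overlapping FOSL1 at 47.2 ± 5.4 TPM. FOSB remained near the bottom at 7.04 ± 1.7 TPM, overlapping BATF3 at 7.5 TPM. At 10% CO2 JUN was at 544.9 TPM with no overlap with JUND (367.5 TPM), and JUND overlapped JUNB (363.9 TPM).

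**Figure D3:**
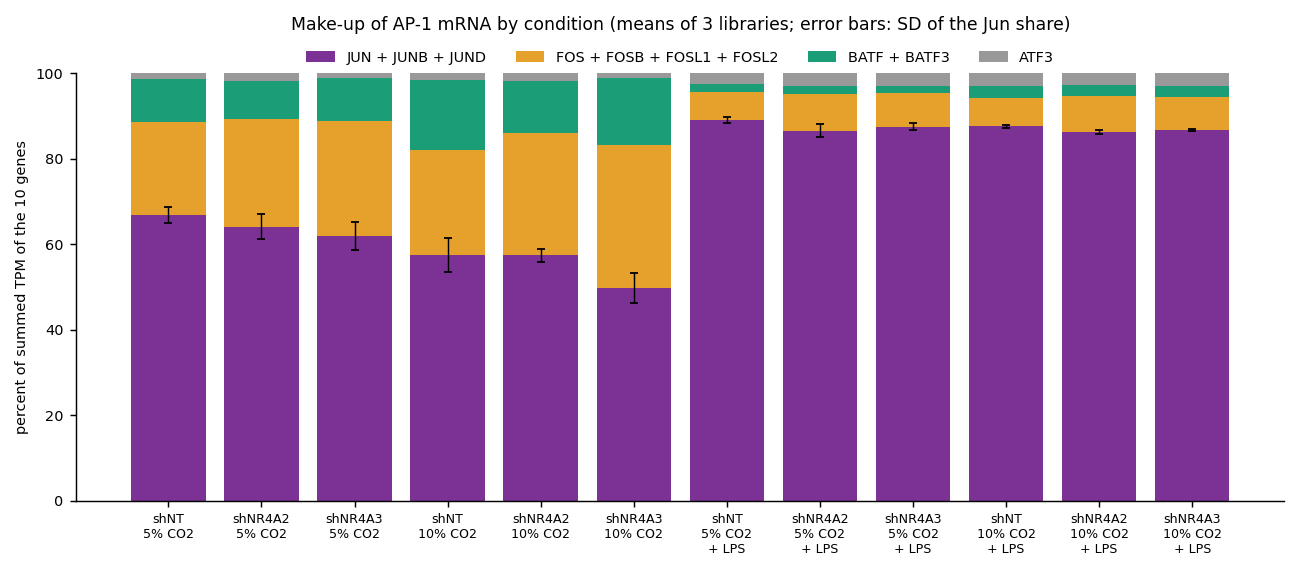
Share of the summed TPM of the 10 AP-1 genes held by the Jun genes, the Fos genes, BATF with BATF3, and ATF3 in each of 12 conditions (means of 3 libraries, error bars are the SD of the Jun share). The Jun share is 49.8 to 66.8% in the 6 basal conditions and 86.2 to 89.0% in the 6 with LPS.

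Buffered hypercapnia had smaller effects, and they were clear mainly when the lines were pooled. Within single lines 2 of 60 tests passed, both for JUND in shNR4A3 cells. In shNT cells no member was called by edgeR in the basal state or with LPS (0.615% and 8.19% of all genes were), 4 and 6 members being under 0.05 before adjustment, as were 2645 and 4436 of the 17720 genes. DESeq2 called 2 members in each of these states, among 358 and 1801 genes. In shNR4A2 cells none was called in the basal state or with LPS either (0.0113% and 0.198% of all genes), 3 and 4 members were under 0.05 before adjustment (1430 and 2897 of all genes), and the DESeq2 counts were 0 and 1 (43 and 600 of all genes). In shNR4A3 cells 1 of 10 was called in each state, against 1.13% and 2.13% of all genes. Pooled over the lines, with line as a term in the fit, 4 of 10 members were called in the basal state (17.9% of all genes) and 7 of 10 with LPS (30.8%). That fit takes all libraries of a CO2 level as independent, although those of the same replicate number deviated together in most comparisons between lines.

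FOSB was lower at 10% CO2 wherever it was measured. In basal shNT cells it was at 2.59, 1.99 and 1.54 TPM at 5% CO2 and 1.19, 0.534 and 1.11 TPM at 10% CO2. In shNR4A2 cells it went from 2.99, 2.27 and 2.4 TPM to 1.71, 1.25 and 1.9 TPM, and in shNR4A3 cells from 2.08, 1.67 and 1.79 TPM to 1.05, 0.974 and 1.35 TPM. In each line all 3 libraries at 10% CO2 were below all 3 at 5%. With LPS the shNT libraries were at 8.47, 7.5 and 5.16 TPM at 5% CO2 and 4.25, 3.98 and 5.15 TPM at 10%. The groups again did not overlap, though by a narrow margin in shNT cells, and the same held for shNR4A2 (lowest 6.37 TPM at 5%, highest 5.13 TPM at 10%) and shNR4A3 cells (5.34 and 4.81 TPM). The pooled change was -0.76 ± 0.15 in the basal state (adjusted p = 0.000987) and -0.60 ± 0.10 with LPS (adjusted p = 0.000111). Within single lines it was -0.52 to -1.02 with adjusted p of 0.0717 to 0.538 by edgeR. DESeq2 called it with LPS in shNR4A2 (adjusted p = 0.0378) and shNR4A3 cells (adjusted p = 0.0303), and gave it no adjusted p in the basal state of any line. The single fit to all 36 libraries called FOSB in basal shNT cells (adjusted p = 0.0318) and in shNR4A3 cells with LPS (adjusted p = 0.0371).

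JUND was the other member called lower at 10% CO2 in both pooled comparisons. Basal shNT libraries were at 278, 274 and 196 TPM at 5% CO2 and 149, 123 and 181 TPM at 10% CO2. In shNR4A3 cells the basal values were 197, 267 and 199 TPM and then 127, 104 and 138 TPM. Neither pair of groups overlapped in TPM, although the shNT libraries did on the TMM scale. With LPS shNT cells went from 701, 611 and 449 TPM to 413, 319 and 370 TPM, and shNR4A3 cells from 487, 531 and 390 TPM to 314, 290 and 330 TPM. Both again were without overlap, whereas in shNR4A2 cells with LPS replicate 3 at 5% CO2 (286 TPM) lay within the range at 10% CO2 (278 to 345 TPM). The pooled change was -0.68 ± 0.12 in the basal state (adjusted p = 0.000515) and -0.55 ± 0.12 with LPS (adjusted p = 0.00275). In shNR4A3 cells alone it was -0.82 ± 0.11 (adjusted p = 0.00917) and -0.54 ± 0.11 (adjusted p = 0.031). The basal call was lost without replicate 2 at 10% CO2 (adjusted p = 0.0815), and the other when any library but replicate 3 at 5% CO2 was left out (adjusted p up to 0.173). Neither passed in 1 fit to all 36 libraries (adjusted p 0.0902 and 0.176), and the stimulated value with GC as an offset was -0.47 (adjusted p = 0.0597). DESeq2 also called JUND lower in shNT cells, basal (-0.64, adjusted p = 0.00645) and with LPS (-0.54, adjusted p = 0.00135). It did not in shNR4A2 cells (adjusted p 0.165 and 0.117). With GC as an offset the edgeR values in shNT cells were -0.69 (adjusted p = 0.0183) and -0.39 (adjusted p = 0.174). GC-rich genes had slightly lower values at 10% CO2 in the pooled comparisons (medians over 5 equal bins of genes from low to high GC content from 0.03 to -0.03 in the basal state and 0.07 to -0.06 with LPS), and with GC as an offset JUND was at -0.66 (adjusted p = 5.62e-05) and -0.45 (adjusted p = 0.0118).

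BATF and BATF3 moved the other way. BATF was at 61.3, 49.9 and 54 TPM in basal shNT cells at 5% CO2 and 61.7, 70.5 and 77.8 TPM at 10% CO2. The groups met closely without overlapping. With LPS shNR4A3 cells went from 26, 24.5 and 24.3 TPM to 35.6, 33.7 and 34.1 TPM, a wider separation. The pooled change of BATF was 0.33 ± 0.09 in the basal state (adjusted p = 0.0115) and 0.42 ± 0.08 with LPS (adjusted p = 0.000445). BATF3 in basal shNT cells was at 7.51, 9.52 and 9.18 TPM at 5% CO2 and 10, 16.7 and 13.7 TPM at 10% CO2. All 3 libraries at 10% were above those at 5%, replicate 2 by the most. Its pooled change was 0.53 ± 0.10 (adjusted p = 0.000616) in the basal state and 0.40 ± 0.11 (adjusted p = 0.00745) with LPS. On the TMM scale BATF and BATF3 were each higher without overlap in 4 of the 6 comparisons within lines. Over all members, in either direction, 23 of 60 such tests were without overlap. The share over all genes is not given here, so these counts are a description.

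With LPS 3 more members were lower at 10% CO2. JUN was at 743, 898 and 609 TPM in stimulated shNT cells at 5% CO2 and 535, 529 and 570 TPM at 10% CO2. Every library at 10% CO2 was below those at 5%. The pooled change of JUN was -0.28 ± 0.06 (adjusted p = 0.00218), beside -0.31 ± 0.11 (adjusted p = 0.0592) in the basal state. It was lower in 8 of 9 basal and 9 of 9 stimulated pairs of libraries with the same replicate number. The basal value passed with DESeq2 (adjusted p = 0.0272), the replicate number as a block (adjusted p = 0.0114), 1 fit to all 36 libraries (adjusted p = 0.0309) and library size alone (adjusted p = 0.0464). FOSL1 had -0.25 ± 0.05 with LPS (adjusted p = 0.00121) and -0.08 ± 0.06 (adjusted p = 0.367) in the basal state. FOSL2 had -0.37 ± 0.11 with LPS (adjusted p = 0.0174), a call that was lost without the filter on low counts (adjusted p = 0.0615) and with GC as an offset (adjusted p = 0.0528). JUNB was at 0.00 ± 0.04 in stimulated cells (95% interval -0.09 to 0.09, adjusted p = 0.984), and ATF3 (-0.25 ± 0.11, adjusted p = 0.0788) and FOS (-0.07 ± 0.10, adjusted p = 0.653) did not pass. ATF3 passed with the replicate number as a block (-0.24, adjusted p = 0.00685) and with library size alone (-0.28, adjusted p = 0.0285).

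Each pooled CO2 call was kept when any 1 of the 18 libraries was left out. Between libraries of the same replicate number, which the labels do not say belong together, FOSB was lower at 10% CO2 in 9 of 9 pairs and BATF higher in 9 of 9, in both states. JUND was lower in 8 of 9 pairs in both states, and BATF3 higher in 9 of 9 basal and 8 of 9 stimulated pairs. Such counts over all genes are not given here, so these are a description. The differences were smallest for replicate 3 in FOSB and JUND. Averaged over the lines, log2 CPM (scaled by TMM) of JUND in the basal state differed by -0.60, -1.12 and -0.25 for replicates 1, 2 and 3. That of FOSB differed by -0.91, -1.12 and -0.35.

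The CO2 response differed between the basal and the stimulated state in 1 member, FOSL2. In the basal state its pooled change was 0.13 ± 0.07 (adjusted p = 0.176), and with LPS it was -0.37. The difference of the responses was -0.50 ± 0.13 (adjusted p = 0.0328), in a test that called 2.93% of all genes. It was lost without 1 of 13 of the 36 libraries (-0.56 to -0.45, adjusted p up to 0.0661). It was also lost in 1 fit to all libraries with 12 groups (adjusted p = 0.0573) and with GC as an offset (-0.45, adjusted p = 0.0675), where JUNB was called instead (0.26, adjusted p = 0.0118). The other 9 members had differences between -0.17 and 0.17.

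In the basal state the share of AP-1 mRNA held by the Jun genes was lower at 10% CO2. It was 64.6 to 68.1% of the summed TPM in shNT cells at 5% CO2 and 52.8 to 60.2% at 10% CO2. In shNR4A2 cells the ranges were 62 to 67.5% and 56 to 59%, and in shNR4A3 cells 59.6 to 65.7% and 46.3 to 53.3%. The groups did not overlap in any line, and the share of BATF with BATF3 was 9.97 ± 1.18% at 5% and 16.3 ± 2.55% at 10% CO2 in shNT cells (SD, n = 3). With LPS the Jun shares at 5% and 10% CO2 were 86.6 to 89.0% and 86.2 to 87.5% as means of the 3 lines.

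**Figure D4:**
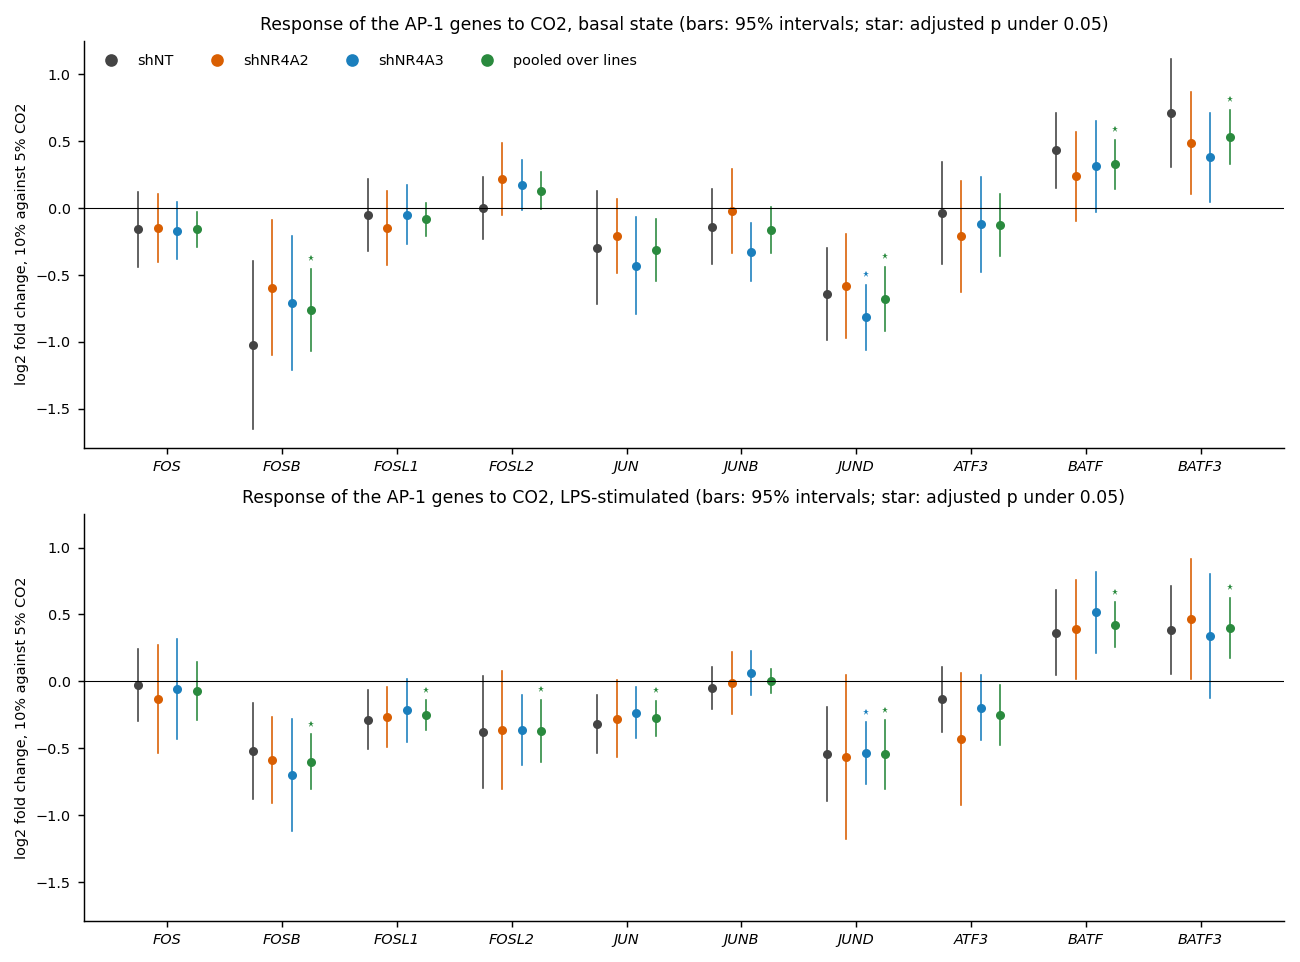
Log2 fold change of each AP-1 gene at 10% against 5% CO2 in the basal state (top) and with LPS (bottom), for each line and pooled over lines. Bars are 95% intervals and a star marks an adjusted p under 0.05. FOSB and JUND are below 0 and BATF and BATF3 above 0 in every line, and the pooled FOSL2 value is 0.13 in the basal state and -0.37 with LPS.

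Comparisons of the knockdown lines with shNT cells addressed what depletion of NR4A2 or NR4A3 does to the members. All of them use the same shNT libraries as the control for both lines, so the values of the lines are not independent, and with 1 transduced population for each shRNA the effect of the shRNA and other differences between lines cannot be told apart. Of 80 tests 13 were called, all of them higher in the knockdown line. In shNR4A2 cells 2, 1, 2 and 2 members were called at 5% CO2, 5% CO2 with LPS, 10% CO2 and 10% CO2 with LPS, against 5.69%, 6.21%, 7.95% and 18.9% of all genes. In shNR4A3 cells the counts were 1, 1, 2 and 2, against 6.19%, 5.41%, 6.85% and 14.5%.

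FOS was higher in both lines in the basal state. It was at 56.4, 54 and 51.9 TPM in shNR4A2 and at 45.5, 44.9 and 47.2 TPM in shNR4A3 cells at 5% CO2, beside 30.9, 29.8 and 25.6 TPM in shNT cells. At 10% CO2 the values were 48.4, 45.1 and 47.2 TPM, 42, 34.9 and 43.8 TPM, and 23.9, 21.1 and 27.9 TPM. No library of either knockdown line came down to the shNT range at the same CO2. The changes were 0.91 ± 0.12 (adjusted p = 0.00119) and 0.91 ± 0.13 (adjusted p = 8.21e-05) in shNR4A2 cells, and 0.72 ± 0.11 (adjusted p = 0.00102) and 0.70 ± 0.12 (adjusted p = 0.0012) in shNR4A3 cells. With LPS they were 0.29 to 0.42 and not called (adjusted p 0.069 to 0.32), though at 5% CO2 they passed with the replicate number as a block (0.38, adjusted p = 0.000842, and 0.40, adjusted p = 0.0137). DESeq2 also called FOS in stimulated shNR4A3 cells at 10% CO2 (0.39, adjusted p = 0.0379).

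FOSL1 was higher in shNR4A2 cells in all 4 conditions. With LPS at 5% CO2 it was at 75.6, 80.5 and 66.8 TPM, beside 50.6, 50 and 40.9 TPM in shNT cells. The groups were well apart. The change was 0.71 ± 0.11 (adjusted p = 0.00474) there and 0.73 ± 0.09 (adjusted p = 0.000143) at 10% CO2. In the basal state it was 0.57 and 0.47 (adjusted p 0.0197 and 0.0284), calls that were lost without any 1 of the 3 shNT libraries at 5% CO2 (adjusted p up to 0.108) and without shNT replicate 1 or 2 or shNR4A2 replicate 1 or 3 at 10% CO2 (up to 0.139). In shNR4A3 cells FOSL1 was called at 10% CO2 with LPS (0.38, adjusted p = 0.0227), and at 5% CO2 with LPS with the block (0.31, adjusted p = 0.0121) or in 1 fit to all 36 libraries (adjusted p = 0.0452). The call at 10% CO2 was lost without replicate 2 or 3 of either line (up to 0.0982) and with GC as an offset (0.29, adjusted p = 0.0685).

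JUNB was higher in LPS-stimulated knockdown cells. At 10% CO2 it was at 360, 349 and 382 TPM in shNT, 450, 484 and 523 TPM in shNR4A2 and 516, 529 and 553 TPM in shNR4A3 cells. The lines did not overlap with shNT cells. The changes were 0.38 ± 0.07 (adjusted p = 0.00246) and 0.53 ± 0.06 (adjusted p = 0.00013). At 5% CO2 JUNB was called in shNR4A3 cells (0.41 ± 0.08, adjusted p = 0.0131), which was lost without shNT replicate 1 or 3 or shNR4A3 replicate 3 (up to 0.0639), and not in shNR4A2 cells (0.35, adjusted p = 0.078), where it passed with the block (adjusted p = 4.8e-05) and in 1 fit to all 36 libraries (adjusted p = 0.0426). FOSL2 was called in basal shNR4A3 cells at 10% CO2, where its libraries were at 100, 99.1 and 94.5 TPM beside 70.4, 65.6 and 65.8 TPM in shNT cells. Its change was 0.52 ± 0.09 (adjusted p = 0.00116), and it was not called in 1 fit to all 36 libraries (adjusted p = 0.0637). FOSB, JUN, JUND, ATF3, BATF and BATF3 were not called in any of the 8 comparisons by edgeR without an alternative setting. Settings other than the block also gave calls lower than shNT cells among the 80 tests, 5 without the filter and 1 with library size alone.

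In 7 of the 8 comparisons, all but that of basal shNR4A2 cells at 10% CO2, libraries of the same replicate number deviated together across the lines. With the replicate number as a block, the calls in these 7 went from 11 to 29, with 23 higher and 6 lower, while the share of all genes called rose to 13 to 34.8%. JUND accounted for 5 of the 6 lower calls. It was lower than in shNT cells with LPS in shNR4A2 (-0.30 at 5% CO2, adjusted p = 0.0031, and -0.29 at 10% CO2, adjusted p = 3.64e-05) and in shNR4A3 cells (-0.25, adjusted p = 0.0118, and -0.26, adjusted p = 0.00423), and in basal shNR4A3 cells at 10% CO2 (-0.31, adjusted p = 0.0108). The other was ATF3 in basal shNR4A3 cells at 10% CO2 (-0.49, adjusted p = 0.012). FOSL2 was then higher in 5 further comparisons (0.26 to 0.36), ATF3 in shNR4A2 cells at 5% CO2 with LPS (0.31, adjusted p = 0.00152), and JUN (0.42, adjusted p = 0.00158) and ATF3 (0.47, adjusted p = 0.00516) in basal shNR4A2 cells at 5% CO2.

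Tests of whether the LPS response differed between a knockdown line and shNT cells called no member by edgeR or by DESeq2. At an unadjusted p under 0.05 there were 1 and 3 members for shNR4A2 at 5% and 10% CO2, and 1 and 3 for shNR4A3, beside 392, 735, 854 and 1390 of the 17720 genes, while 0, 0.0451, 0 and 0.198% of all genes were called. FOS had the largest differences in shNR4A2 cells at 5% CO2 (-0.51 ± 0.19, adjusted p = 1), and at 10% CO2 it was at -0.63 ± 0.22 (adjusted p = 0.874), beside -0.73 ± 0.32 for FOSB (adjusted p = 1). In shNR4A3 cells ATF3 was at 0.59 and 0.62, and JUNB at 10% CO2 at 0.47 ± 0.13 (adjusted p = 0.257). With the replicate block JUNB passed there (0.47, adjusted p = 0.0295). Tests of whether the CO2 response differed between lines called no member by either tool, none had an unadjusted p under 0.05 (192 to 458 of all genes had), and 0% of all genes were called in all 4.

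**Figure D5:**
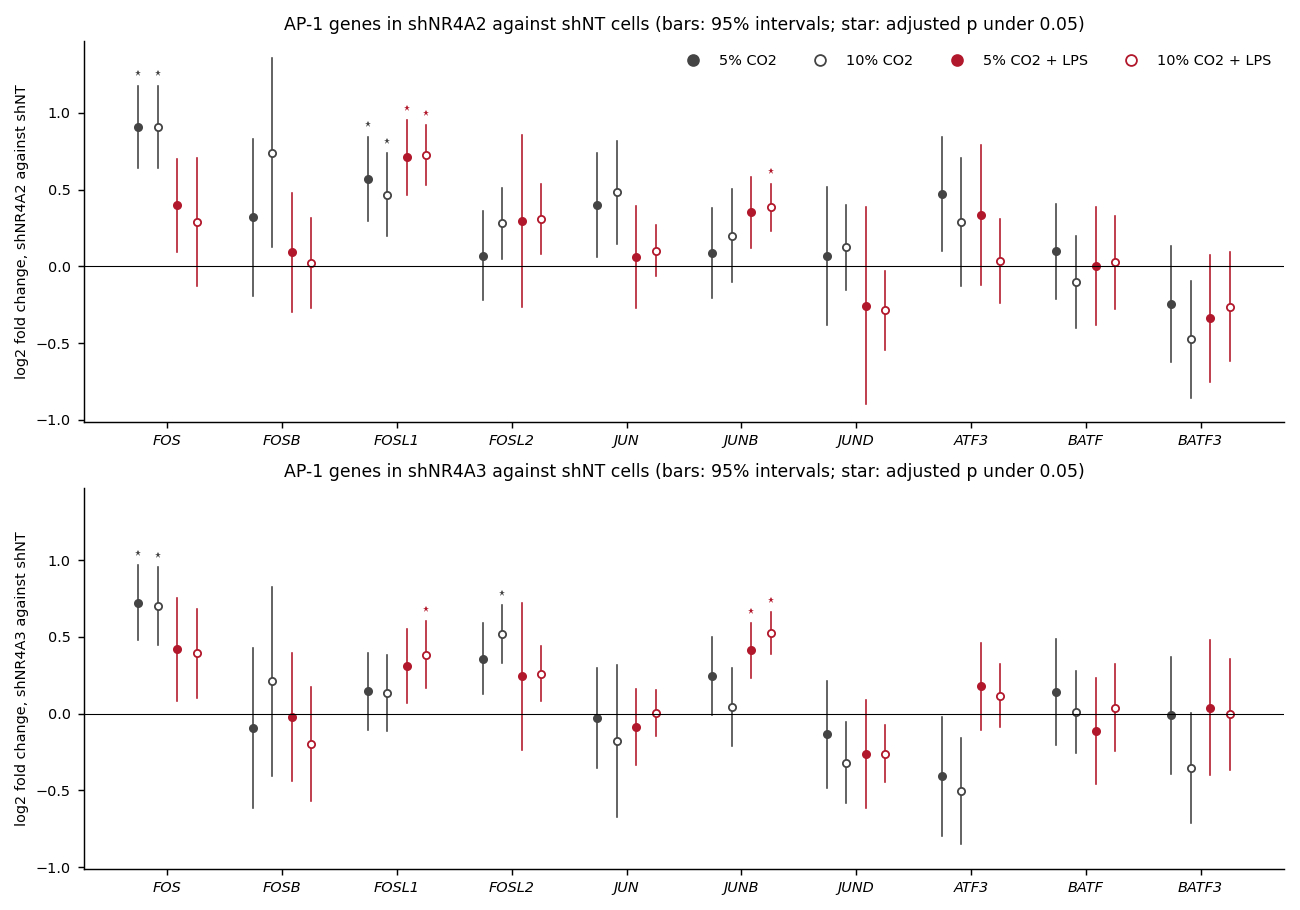
Log2 fold change of each AP-1 gene in shNR4A2 (top) and shNR4A3 cells (bottom) against shNT cells in 4 conditions. Bars are 95% intervals and a star marks an adjusted p under 0.05. FOS is highest in the basal state (0.70 to 0.91), FOSL1 is up in all 4 conditions in shNR4A2 cells, and JUNB with LPS reaches 0.53 in shNR4A3 cells.

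Other genes of the pathway were read from lists of further basic leucine zipper genes, MAP kinases, serum response factor with its cofactors, and known AP-1 targets. These lists too were chosen with earlier results of these data known, so their counts are a description. With LPS in shNT cells at 5% CO2, where 22.9% of all genes were called, 9 of 17 other leucine zipper genes rose and 1 fell (median 0.39). The 3 largest were CREB5 (3.81), MAFF, a small Maf protein (2.74), and NFE2L2, the regulator of antioxidant genes (2.53). Of 17 MAP kinase genes 3 rose and 2 fell, led by MAP3K8, the kinase that feeds the ERK pathway from Toll-like receptors (3.41), with MAP2K3 (0.61) and MAPK14, which encodes p38 alpha (-0.55), next. Of 6 serum response genes 1 rose and 1 fell, MRTFA (0.44) and ELK3 (-0.75). Of 16 AP-1 targets 8 rose and none fell (median 0.94), the largest being CXCL8 (7.75) and IL1B (7.63), genes of an attractant of neutrophils and of interleukin 1 beta, and the collagenase gene MMP1 (3.81). Over the other 5 LPS comparisons, which called 18.2 to 42.1% of all genes, 6 to 11 leucine zipper genes and 10 AP-1 targets rose in each. In these, 1 or 2 leucine zipper genes and 0 to 2 AP-1 targets fell.

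At 10% CO2 in the pooled basal comparison, which called 17.9% of all genes, 7 of 16 AP-1 targets fell and 1 rose, with a list median of -0.27 beside -0.0018 over all genes. CXCL8 (-0.72 ± 0.15, adjusted p = 0.00221) and the adhesion receptor gene CD44 (-0.42) were among the largest. MAFF (-0.82) and MAFG (-0.35) were the 2 other leucine zipper genes called, both lower. Of the MAP kinase genes 1 rose (MAPK14, 0.31) and 4 fell (MAP2K7, -0.24, and MAP2K4, -0.22, being the largest), and of the serum response genes ELK3 fell (-0.32). With LPS, where 30.8% of all genes were called, 3 targets rose and 4 fell, and the list no longer leaned one way in its calls, although its median was -0.21. HBEGF, an epidermal growth factor receptor ligand, fell (-0.93), while MMP1 (0.73) and CD44 (0.69) rose, CD44 thus having the opposite sign to that in the basal state. Among the MAP kinase genes 2 rose, MAP3K8 (1.00) and MAP3K5 (0.45), and 6 fell, MAPKAPK2 having the largest fall (-0.30). Leucine zipper genes had 2 higher and 4 lower, led by BATF2 (0.65), CREB5 (-0.60) and MAFF (-0.31). Of the serum response genes ELK3 fell (-0.86), and SRF (0.21) and MRTFA (0.16) rose.

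The genes most like each member were read as the highest Pearson r of log2 CPM over the 36 libraries, among 13976 genes. The libraries share their conditions, so r is given as a description. JUNB was closest to ZC3H12A (0.995), PIM3 (0.993) and CD83 (0.992), JUN to DUSP8 (0.992), PPP1R15A (0.992) and CCL3L3 (0.989), and ATF3 to DUSP8 (0.988), EGR1 (0.987) and JUN (0.985). FOSB was closest to CSRNP1 (0.961), JUN (0.959) and NFKBID (0.956). For these 4 genes each neighbour had r above 0.95. JUND was closest to SLU7 (0.95), IBA57 (0.948) and CIC (0.94), FOSL2 to ARHGAP45 (0.956), PNP (0.954) and BICD2 (0.953), BATF to HGH1 (0.935), MON1A (0.929) and PAFAH2 (0.912), and FOSL1 to TAGLN2 (0.93), MACROH2A1 (0.921) and LNCATV (0.916). FOS, with ARPC3 (0.808), ITGB2 (0.803) and GAA (0.785), and BATF3, with ALG3 (0.798), CCDC86 (0.778) and PYCR1 (0.755), had no neighbour above 0.81.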

How the data were processed

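RNA-seq counts per gene were analysed in 36 libraries of THP-1 cells. Before the counts were deposited, the authors used Trimmomatic 0.36 for trimming of the paired reads (polyA-selected RNA), STAR 2.5.2b with GRCh38 for alignment and featureCounts of Subread 1.5.2 for counting, as named in the submitters' processing notes. The counts were whole numbers with no normalization. Not given in the sources used here are the release of the annotation, the setting for strand and the unit counted (read or fragment). The 10 members were located by Ensembl ID, and the members and the gene lists were chosen with earlier results of these data known. TPM was computed here over the complete set of gene rows, using the length column of the count files.

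Groups came from the sample labels. Genes were kept by filterByExpr (minimum count 10, minimum total 15, 12 conditions as groups), which left 17720. The quasi-likelihood F test of edgeR 4.0.16 (R 4.3.3, robust, TMM scaling) was used with Benjamini-Hochberg adjustment over all 17720 genes, and an adjusted p under 0.05 was called. LPS, CO2 and knockdown comparisons used their own 6 libraries, pooled CO2 comparisons 18 with line as a term, differences of responses 12 or, pooled over lines, 36. Standard errors were derived from the log2 fold change and F. The study's methods name DESeq2, which was an alternative here (DESeq2 1.42.0). Other alternatives were RLE size factors, library size alone, no filter, a replicate block, 1 fit to all 36 libraries, a threshold of 0.01, each library left out, and, added after the data were seen, offsets for GC content in 20 bins. The fits were tested on simulated data. Totals per library were 16171161 to 23929138 counts, and error bars cover the spread of 3 libraries per condition.

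The replicate numbers in the labels were taken to pair libraries where the deviations of same-numbered libraries from their condition means had r above 0.1 for every number. This held in 13 of 20 comparisons (198 values of r, -0.47 to 0.833, median 0.33).

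All members are named. From each list the 3 called genes with the largest change are named for LPS in shNT cells at 5% CO2 and for both pooled CO2 comparisons (some items are not reported here), and for each member the 3 genes with the highest r with a mean of at least 1 CPM. The letters TGACATCA, TGACG and TATAAA were added to the motifs after the sequences were seen. Gene positions and exons came from an annotation of GRCh38, promoters from RefSeq.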

Additional observations from a re-analysis of the deposited data

Results flagged for a closer look

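The response of FOSL2 to 10% CO2 differed between LPS-stimulated and basal cells by -0.50 on the log2 scale (edgeR, adjusted p = 0.0328, 36 libraries). It was picked out because the test of the difference itself passed: pooled over the lines FOSL2 was at 0.13 in the basal state, higher in 7 of 9 pairs of libraries with the same replicate number, and at -0.37 with LPS, lower in 7 of 9. Averaged over the lines for replicates 1, 2 and 3, log2 CPM (scaled by TMM) differed by 0.06, 0.14 and 0.23 in the basal state. With LPS the differences were -0.43, -0.63 and 0.01. These pairs are a description, since same-numbered libraries met the criterion for pairing in 1 of 6 CO2 comparisons within lines.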

How the results depend on the processing

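Of the 75 values called for single members, all kept their direction under every alternative. With RLE size factors, DESeq2 and the replicate block all 75 were also still called, while 5 were lost in 1 fit to all 36 libraries, 5 with GC offsets, 2 with library size alone, 1 without the filter and 11 at a threshold of 0.01. Leaving out single libraries ended 41 calls and kept 571. LPS calls stayed at 45 to 51 of 60 under all settings. The CO2 calls within lines, 2 of 60, were the least stable: 9 with DESeq2, 16 without the filter, 5 with the replicate block, 1 at a threshold of 0.01, and 1 to 7 with a library left out. In these comparisons 0.0113 to 8.19% of all genes were called without the block and 0.813 to 8.85% with it. Pooled basal CO2 calls went from 4 to 7 with the replicate block (paired by number) and were 4 to 6 with a library left out. The share of all genes called there went from 17.9% to 24.8% with the block. Knockdown calls went from 13 to 26 without the filter and to 34 with the replicate block, and were 12 to 15 with a library left out. The block raised the share of all genes called from between 5.41 and 18.9% to between 11.9 and 34.8%. Shares without the filter are not given here. Line by LPS calls went from 0 to 1 with the block. The single CO2 by LPS call was 0 in 1 fit to all libraries and at a threshold of 0.01, and 0 to 1 with a library left out. Beyond the calls given in the report, the block added FOS (-0.16, adjusted p = 0.04) and FOSL2 (0.14, adjusted p = 0.0241) to the pooled basal CO2 comparison, JUN (-0.31, adjusted p = 0.0417) and JUND (adjusted p = 0.00955) at 10% CO2 in stimulated shNT cells, JUNB (-0.32, adjusted p = 0.0449) in basal shNR4A3 cells, and FOSB (0.77, adjusted p = 0.0403), JUN (0.50, adjusted p = 0.00143) and BATF3 (-0.46, adjusted p = 0.0469) in basal shNR4A2 against shNT cells at 10% CO2. Same-numbered libraries did not meet the criterion for pairing in stimulated shNT or basal shNR4A3 cells between CO2 levels. Nor did they between basal shNR4A2 and shNT cells at 10% CO2. The causes were not tested. Scaling TPM by TMM factors moved 24 condition means by over 1 SD and left 96 within it. FOSB, with 16 to 270 counts, is limited by depth.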
